A study of Homo sapiens with 6 samples.

Results

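Expression of 6 genes of DNA replication, ATAD2, DSCC1, DTL, EXO1, PRIM1 and WDHD1, was examined in PC3 cells after knockdown of clusterin. The genes were taken as the probes whose systematic name is a RefSeq mRNA accession of one of them. These accessions are NM_014109, NM_024094, NM_016448, NM_003686, NM_000946 and NM_007086, in the order given above. ATAD2 and DSCC1 lie on chromosome 8, DTL and EXO1 on chromosome 1, PRIM1 on chromosome 12 and WDHD1 on chromosome 14. Each gene had 1 probe with such a name, and probes without one, which may include others for these genes, were not used. The 6 genes are among the 50 genes that the array files name by an accession, and their probes are 6 of 175287 non-control probes. The 6 probes had 90 spots under the accessions and 6 more, 1 for each probe, under the probe identifier, and none of the 6 probes was lost to the filter on dim probes.

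The cells were of PC3, a human prostate cancer line, and clusterin (CLU) is a chaperone protein. A small interfering RNA against CLU mRNA (siCLU, 3 arrays) or a scrambled one (siSCR, 3 arrays) was introduced by transient transfection, with no other treatment given for these samples. Each array measured Cy3-labeled cRNA from an input of 100 ng RNA, in biological triplicate for both groups. The comparison belongs to a study of how CLU acts on the cell cycle, and the time from transfection to RNA extraction is not given in the sources used here. None of the 50 named probes belongs to CLU or to the other 9 prostate and PC3 markers on a list of 10, so neither the knockdown nor the identity of the cells was checked on the arrays.

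One array stood apart before any comparison. On siSCR replicate 3, 45.9% of non-control spots were well above background, against 73.5% to 77.2% on the other 5 arrays, and 23 of 200 equal tiles of its surface, with 11.7% of its spots, had a dim end (the 10th percentile of the spot signal in a tile) above 1.5 times that of the median tile. The arrays came from 3 slides. Both groups were present on slide 2 alone, where siCLU replicate 3 shared the slide with siSCR replicates 2 and 3. The remaining siSCR array was on slide 1 and the remaining siCLU arrays were on slide 3. Between slides 1 and 3, therefore, knockdown and slide cannot be told apart.

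Chromosomes are copied in S phase by a fork at which a helicase opens the double strand and polymerases follow. Primase, of which PRIM1 is the catalytic subunit, lays down the RNA primers for DNA polymerase alpha, and WDHD1 (also called AND-1) ties this polymerase to the helicase. DSCC1 is a subunit of an alternative clamp loader with a role in the cohesion of sister chromatids, EXO1 is a DNA exonuclease of mismatch repair and of the trimming of DNA ends, DTL is the substrate receptor of a ubiquitin ligase that removes the licensing factor CDT1 in S phase, and ATAD2 is a chromatin-bound ATPase with a bromodomain. Transcription of many such genes peaks around the start of S phase under E2F transcription factors. In bulk RNA a change in the level per cell and a change in the share of cells in S phase cannot be told apart.

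The promoters of WDHD1, DTL and PRIM1 are shown because these genes had the highest of the 6 group differences, the lowest and the one nearest to 0. Each is the 250 bases before the transcription start in RefSeq on GRCh38.p14, written in the direction of transcription, with capitals for matches to E2F letters (TTTGGCGC, TTTCCCGC, TTTGCCGC or TTTCGCGC) and to the CCAAT box (CCAAT). The windows lie at chr14:55027100-55027349 (minus strand), chr1:212035498-212035747 (plus strand) and chr12:56752324-56752573 (minus strand).
WDHD1: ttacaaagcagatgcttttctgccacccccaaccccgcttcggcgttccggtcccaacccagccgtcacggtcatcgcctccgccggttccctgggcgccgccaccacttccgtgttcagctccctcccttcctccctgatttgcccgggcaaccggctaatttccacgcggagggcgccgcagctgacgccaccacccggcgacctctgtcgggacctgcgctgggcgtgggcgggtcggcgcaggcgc
DTL: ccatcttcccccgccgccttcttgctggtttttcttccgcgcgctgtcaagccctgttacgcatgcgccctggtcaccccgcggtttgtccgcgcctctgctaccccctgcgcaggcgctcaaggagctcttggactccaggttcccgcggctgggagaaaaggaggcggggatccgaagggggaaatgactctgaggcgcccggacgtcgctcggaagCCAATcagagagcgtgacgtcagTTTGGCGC
PRIM1: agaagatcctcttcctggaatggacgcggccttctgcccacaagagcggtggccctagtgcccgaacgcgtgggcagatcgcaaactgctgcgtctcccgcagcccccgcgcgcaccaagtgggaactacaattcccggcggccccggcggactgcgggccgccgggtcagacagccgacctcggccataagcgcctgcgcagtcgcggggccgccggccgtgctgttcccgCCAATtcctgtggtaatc
The DTL window held an E2F match from 8 to 1 bases before the start and a CCAAT box from 31 to 27 bases before it, and the PRIM1 window held a CCAAT box from 18 to 14 bases before the start. No match to either set lay in the WDHD1 window. The letters TTTGAA of the cell cycle homology region were searched as well, lay in none of the windows shown and were found in 13.3% of all promoter windows. Of 35116 promoter windows of this length, 2.79% held one of the E2F strings and 32.0% held CCAAT on either strand, and no match overlapped another in the windows shown. A match describes letters only.

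None of the 6 genes passed the threshold of an adjusted p of 0.05 and a change of 1.5-fold between siCLU and siSCR, in limma with Benjamini-Hochberg adjustment over 130673 probes, where 1.62% of all probes passed. WDHD1 had the highest difference and alone of the 6 had groups that did not overlap. This pattern was found at 32.7% of all probes tested, and at 37.3% of those detected above background on every array. Every siCLU array lay above every siSCR array at 19.1% of all probes tested, and at 18.9% of those detected on every array. At an unadjusted p of 0.05, 1 of the 6 passed in limma, WDHD1, against 22.1% of all probes, and with 1.5-fold as well the share of all probes was 16.3%. By the methods' t-test 0 of the 6 passed at an unadjusted p of 0.05, against 16.1% of all probes, or 10.3% with 1.5-fold as well. None of the 6 passed it after adjustment, against 0.00153% of all probes. Of the 6 differences 4 were above 0 and 2 below, with a median of 0.18 on the log2 scale. The median over all 130673 probes was 0.12, so most of these were above 0 too. Over the probes detected above background on every array, as the 6 were, the median was 0.02.

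WDHD1, the fork protein that joins polymerase to helicase, had normalized log2 intensities of 11.04, 10.91 and 11.57 on siSCR replicates 1, 2 and 3, and of 12.29, 11.69 and 11.78 on siCLU replicates 1, 2 and 3. Every siCLU array lay above every siSCR array, with the narrowest gap, 0.12, between siCLU replicate 2 and siSCR replicate 3. The group means were 11.18 ± 0.35 in siSCR and 11.92 ± 0.32 in siCLU (SD, n = 3). The difference was 0.75 on the log2 scale, or 1.68-fold, with a standard error of 0.26 and a 95% interval from 0.12 to 1.37 (adjusted p = 0.17 from limma). The exact permutation test over the 6 arrays gave p = 0.1, two-sided, which is the smallest that 3 against 3 arrays allow. Within slide 2 the difference was 0.54, between 1 siCLU array and 2 siSCR arrays, and between the arrays of the other slides it was 0.95. With slide as a block the adjusted p from limma was 0.84. With 1 array left out the difference ranged from 0.56 without siCLU replicate 1, its highest array (adjusted p = 0.35 from limma), to 0.94 without siSCR replicate 3 (adjusted p = 0.075 from limma). WDHD1 no longer passed an unadjusted p of 0.05 in limma without siSCR replicate 1, siSCR replicate 2 or siCLU replicate 1. Among the alternatives run, WDHD1 passed the adjusted threshold with array weights alone, at 0.76 (adjusted p = 0.047 from limma), where 10.3% of all probes passed. The weights were 0.70, 1.28 and 0.25 for siSCR replicates 1, 2 and 3, and 0.43, 2.38 and 4.46 for siCLU replicates 1, 2 and 3. The lowest weight thus fell on siSCR replicate 3, the siSCR array with the highest WDHD1 value. Over all alternatives with a test the adjusted p of WDHD1 ranged from 0.047 to 0.84.

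ATAD2, the chromatin ATPase, had log2 intensities of 10.38, 10.68 and 11.19 on the siSCR arrays and of 11.72, 11.01 and 11.18 on the siCLU arrays, in the order of their replicate numbers. The groups overlapped, since siSCR replicate 3 lay above siCLU replicates 2 and 3. The difference was 0.56 on the log2 scale, or 1.47-fold, with a standard error of 0.29 and a 95% interval from -0.14 to 1.26 (adjusted p = 0.32 from limma). Its exact permutation p was 0.3. The difference was 0.25 within slide 2 and 0.99 between the arrays of the other slides. It was 0.35 without siCLU replicate 1, the highest of the 6 arrays, and 0.78 without siSCR replicate 3.

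PRIM1, the primase subunit, had log2 intensities of 10.75, 10.12 and 10.76 on the siSCR arrays and of 10.25, 10.73 and 10.60 on the siCLU arrays. Both groups held 1 low array and 2 high ones, and the low ones were siSCR replicate 2 and siCLU replicate 1. The difference was -0.01 with a standard error of 0.24 and a 95% interval from -0.61 to 0.58 (adjusted p = 0.98 from limma). Its sign was not the same in the slide comparisons, at 0.16 within slide 2 and -0.26 between the arrays of the other slides.

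DSCC1, the clamp loader subunit, had log2 intensities of 9.44, 9.21 and 9.86 on the siSCR arrays and of 9.77, 9.82 and 9.61 on the siCLU arrays. The 3 siCLU arrays lay above siSCR replicates 1 and 2 and below siSCR replicate 3. The difference was 0.23 with a standard error of 0.21 and a 95% interval from -0.28 to 0.73 (adjusted p = 0.54 from limma). It was 0.07 within slide 2, 0.35 between the other slides, 0.08 without siSCR replicate 2 and 0.41 without siSCR replicate 3.

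EXO1, the exonuclease, had log2 intensities of 9.45, 9.47 and 9.96 on the siSCR arrays and of 9.65, 9.85 and 9.75 on the siCLU arrays. As for DSCC1, only siSCR replicate 3 among the controls lay above the siCLU arrays. The difference was 0.12, at the median of all probes tested, while the median of those detected above background on every array was 0.02. The difference had a standard error of 0.19 and a 95% interval from -0.35 to 0.60 (adjusted p = 0.72 from limma). It was 0.03 within slide 2, 0.30 between the other slides, 0.04 without either siSCR replicate 1 or siSCR replicate 2, 0.07 without siCLU replicate 2 and 0.29 without siSCR replicate 3.

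DTL, the ubiquitin ligase receptor, had log2 intensities of 11.41, 11.77 and 11.98 on the siSCR arrays and of 11.58, 11.46 and 11.48 on the siCLU arrays. The siCLU arrays lay close together, and siSCR replicate 1 lay below all of them. The difference was -0.22 with a standard error of 0.19 and a 95% interval from -0.68 to 0.25 (adjusted p = 0.53 from limma). It was -0.40 within slide 2 and 0.11 between the arrays of the other slides, so its sign differed between these comparisons. Without siSCR replicate 3 it was -0.09, and without siSCR replicate 1 it was -0.37.

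Each of the 6 intervals included a 1.5-fold change in at least 1 direction, and the data therefore do not bound these differences below that size. Over the exact permutation tests p ranged from 0.1 for WDHD1 to 0.8 for PRIM1.

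The plot of the 6 differences sets these intervals beside the spread over arrays, slides and spots.

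**Figure D1:**
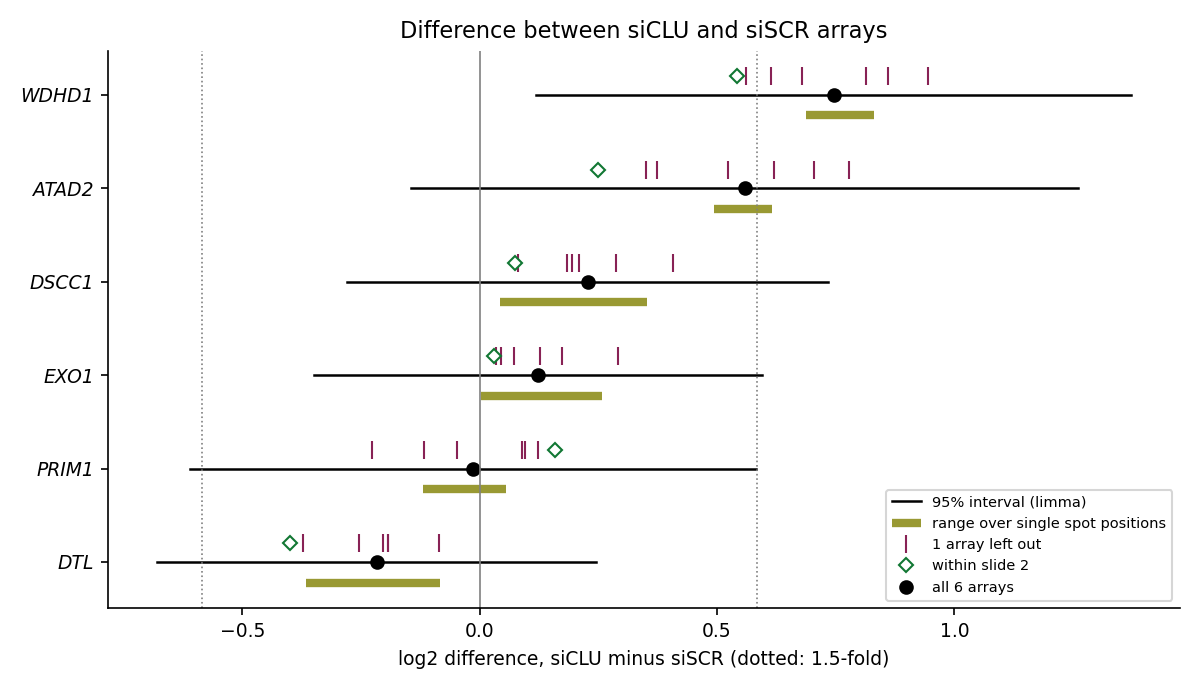
Difference in log2 intensity, siCLU minus siSCR (x axis), for each of the 6 genes (y axis), with the 95% interval from limma (black lines, n = 3 arrays in each group), the values with 1 array left out (ticks), the value within slide 2 (diamonds) and the range over spot positions taken singly (thick bars). WDHD1 lies at 0.75 with an interval above 0, the other 5 intervals include 0, and the thick bars are narrower than the intervals.

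All 576 member spots on the 6 arrays were well above background and none was saturated, and 19 were marked as outliers and left out. The mean spot signal was between 17.3 and 203 times the local background, with the lowest ratio at DSCC1 and the highest at WDHD1. Over the 36 combinations of probe and array, the SD between spots ranged from 0.033 to 0.20 on the log2 scale with a median of 0.061. The median was 0.085 for the other probes with an accession, which were not matched to the members for brightness. Of the 50 probes with an accession, 43 passed the filter on dim probes.

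The plot of all spots shows how tightly they lie around each array's mean.

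**Figure D2:**
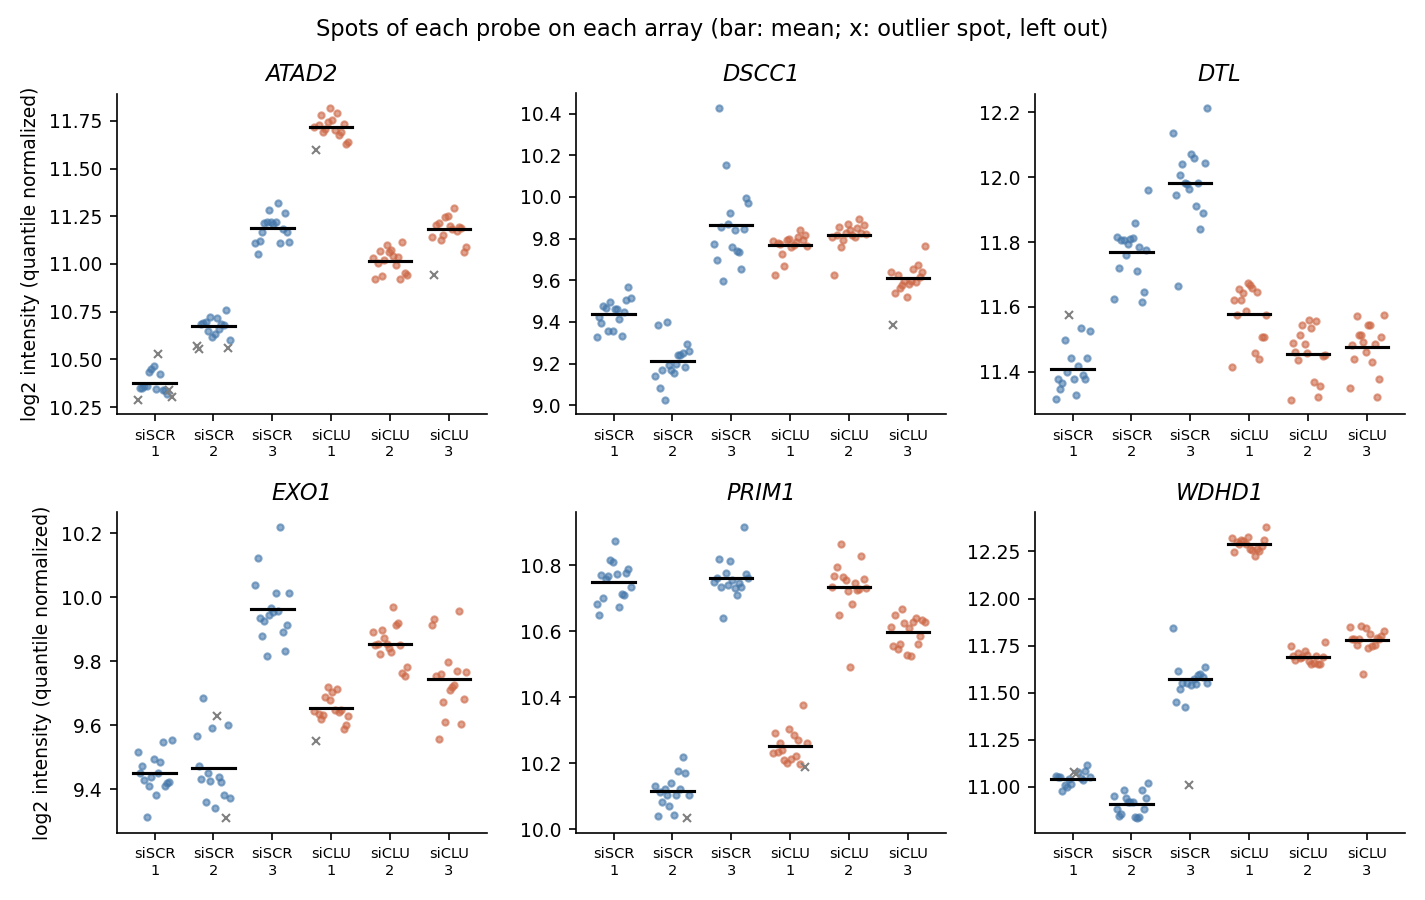
Log2 intensity after quantile normalization (y axis) of each of the 16 spots of a probe on each array, in 1 panel for each gene, with the array mean as a bar and spots marked as outliers as crosses. Spots of 1 array cluster around their mean, most tightly for WDHD1 on siCLU replicate 2 (SD 0.033), and the widest spread is DSCC1 on siSCR replicate 3 (SD 0.20).

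Arrays of one group differed far more than spots of one array. For ATAD2 the pooled SD was 0.058 between spots and 0.39 between arrays of a group, a ratio of 6.69. The ratio was 5.89 for WDHD1 and 5.38 for PRIM1, and it was lower, at 2.34, 2.35 and 2.57, for DSCC1, DTL and EXO1. The spots of a probe share the RNA of their array and are not replicates of a condition. If the error of a mean over spots came from independent spots, it would account for between 0.15% of the variance between arrays, for ATAD2, and 1.15%, for DSCC1.

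The plot of both SDs gives this contrast for each gene.

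**Figure D3:**
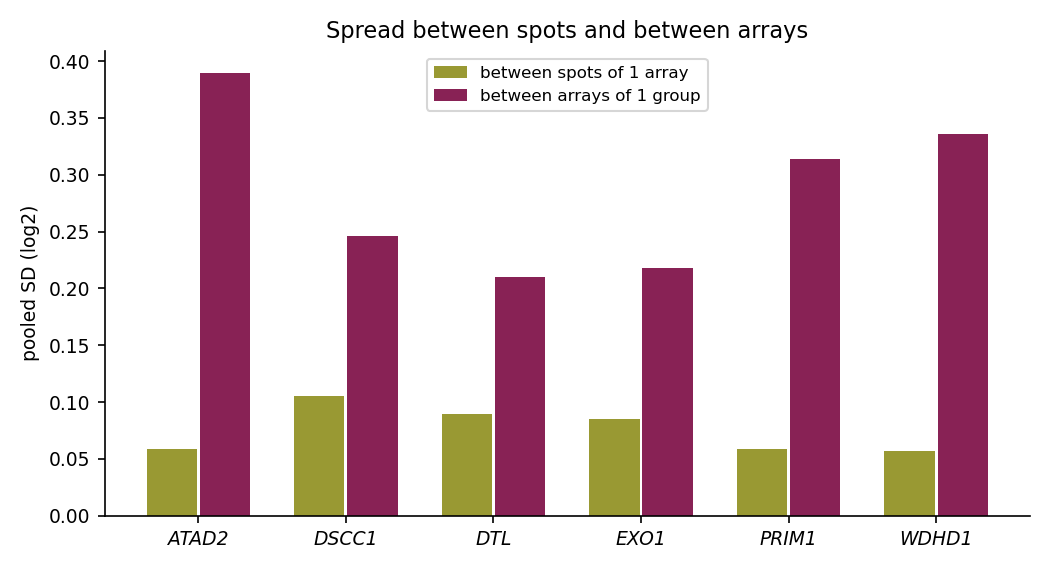
Pooled SD on the log2 scale (y axis) between spots of 1 array and between arrays of 1 group for each gene. The SD between arrays is from 2.34 to 6.69 times that between spots.

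The difference was also computed from each spot position alone. The positions share the RNA of the same arrays, so agreement between them describes the spots and is not repeated evidence of a group difference. Among the 13 WDHD1 positions without an outlier on any array, the difference from a single position ranged from 0.69 to 0.83. At 12 of them every siCLU array lay above every siSCR array. Averaged over spots, 18.9% of the probes detected above background on every array had that order. For ATAD2, 11 positions gave values from 0.49 to 0.62, of which 4 reached 1.5-fold. EXO1 ranged from 0.0030 to 0.26 over 13 positions and DSCC1 from 0.042 to 0.35 over 15, all above 0, while DTL ranged from -0.37 to -0.08 over 15, all below 0. PRIM1 took either sign, from -0.12 to 0.06. The spot listed under the probe identifier differed from the mean of the 15 others by -0.13 to 0.20 on the 36 combinations of probe and array, with a median of -0.01.

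The bright area of siSCR replicate 3, with 11.7% of all spots of that array, also held some of the members' spots. It held 4 spots of DTL, 3 of DSCC1, 2 each of ATAD2, PRIM1 and WDHD1, and 0 of EXO1, outliers aside. The DSCC1 spots inside it averaged 10.09 and those outside 9.81, while for the other 4 genes the means inside and outside differed by less than the SD between the outside spots. Without the spots in the area the 6 differences were 0.56 for ATAD2, 0.25 for DSCC1, -0.22 for DTL, 0.12 for EXO1, -0.01 for PRIM1 and 0.74 for WDHD1.

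All 6 genes had their highest siSCR value on replicate 3, EXO1 included, which had no spot in the bright area. Of the 77952 probes detected above background on every array, 29.6% did so. For PRIM1 replicate 3 was barely above replicate 1, at 10.76 against 10.75. Whether the lower share of detected spots on this array plays a part in the members' values was not tested. Relative to their own siSCR means, which include this array, the 6 genes were between 0.22 and 0.44 higher on it. The order of the siCLU arrays was not shared. On siCLU replicate 1, WDHD1 was 1.11 and ATAD2 0.97 above their siSCR means, whereas PRIM1 was at -0.29 and DTL at -0.14.

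The plot of values relative to the siSCR means shows this array by array.

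**Figure D4:**
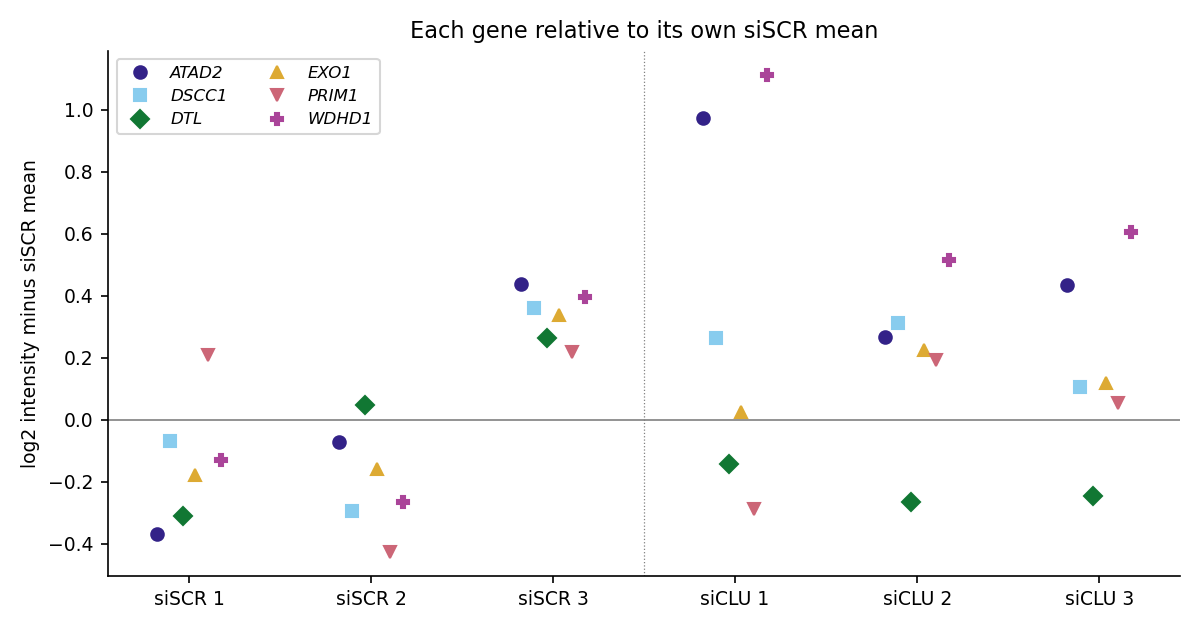
Log2 intensity of each gene minus its own mean over the siSCR arrays (y axis) on each of the 6 arrays. All 6 genes lie above 0 on siSCR replicate 3, between 0.22 and 0.44, and they spread from -0.29 for PRIM1 to 1.11 for WDHD1 on siCLU replicate 1.

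WDHD1 and ATAD2 had their highest values on the same array, siCLU replicate 1, with a mean absolute difference of 0.17 between their values relative to the siSCR means over the 6 arrays. DSCC1 and EXO1 were closer still, at 0.10, and DTL and WDHD1 were farthest apart, at 0.59. The members were compared with each other as the difference of their log2 differences for all 15 pairs, with exact permutation tests over the 6 arrays. The difference of DTL was -0.96 relative to that of WDHD1, and the ratio of the pair did not overlap between the groups (exact p = 0.1, the smallest possible, and 0.21 after Benjamini-Hochberg adjustment over the 15 pairs). Relative to WDHD1, PRIM1 was at -0.76, EXO1 at -0.62 and DSCC1 at -0.52, with the same exact and adjusted p. They also held for 3 pairs with DTL. ATAD2 was at 0.78 and DSCC1 at 0.44 relative to DTL, and DTL was at -0.34 relative to EXO1. All pairs at the smallest p hold WDHD1 or DTL, the highest and lowest of the 6 differences, and are not separate results. The share of such pairs among other probes was not computed. For single probes, groups did not overlap at 32.7% of those tested, and at 37.3% of those detected above background on every array. ATAD2 was at -0.19 relative to WDHD1 (exact p = 0.3, adjusted p = 0.50). In the other 7 pairs the exact p was from 0.3 to 0.8.

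Among 37 other kept probes with an accession, the pattern nearest to WDHD1 was that of UCHL5, a deubiquitinase of the proteasome, with a mean absolute difference of 0.07 over the 6 arrays, followed by RPAP3, a cochaperone, with 0.15. The nearest to ATAD2 were WRN, a DNA helicase, and RPAP3, both with 0.13. CPS1, an enzyme of the urea cycle with a group difference of -0.01, was the nearest to DSCC1, EXO1 and PRIM1, with 0.13, 0.11 and 0.09, and ERGIC2 was the nearest to DTL, with 0.13. The next nearest were BRCA1 for DSCC1 (0.14), CHAF1B for EXO1 (0.11), ITGB3BP for PRIM1 (0.15) and CENPQ for DTL (0.14). Nearness here describes 6 arrays and carries no test.

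Of a list of 92 genes of DNA replication and its control, 9 had a probe with an accession, the 6 genes above and CCNA2, CHAF1B and WRN. None of the 9 passed the threshold in limma, where 1.62% of all probes did. At an unadjusted p of 0.05, 3 of the 9 passed (CCNA2, WDHD1 and WRN), against 22.1% of all probes. Of the 9, 7 had differences above 0, among them 4 of the 6 genes above. The median of the 9 was 0.23, beside 0.12 over all probes tested, most of which were therefore above 0 too. It was 0.02 over the probes detected above background on every array. CCNA2, the cyclin of S and G2 phases, had a difference of 1.52 with a standard error of 0.29 (adjusted p = 0.063 from limma), larger than that of any of the 6. WRN had a difference of 0.67, with a standard error of 0.23 (adjusted p = 0.17 from limma), and CHAF1B, a subunit of the histone chaperone that follows the fork, of 0.10, with one of 0.15 (adjusted p = 0.69 from limma). The other 83 genes of the list, among them the MCM helicase and the polymerases, are not analysed here.

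Set against the probes detected above background on every array, the 6 genes spanned much of the distribution. WDHD1 lay above 95.0% of the 77952 signed differences and ATAD2 above 90.2%. DSCC1, EXO1, PRIM1 and DTL lay above 69.9%, 60.0%, 46.4% and 29.5%. These ranks hold for this set alone. The upper quartile of the differences was 0.29 in it and 0.46 over all 130673 probes tested, and the medians were 0.02 and 0.12. In absolute size, 86.3% of these probes had a smaller difference than WDHD1 and 2.62% a smaller one than PRIM1. Tested among these probes alone, where 10.5% passed the threshold, none of the 6 passed. At an unadjusted p of 0.05, 1 of the 6 passed there, WDHD1, against 29.3% of the probes, and the adjusted p of WDHD1 from limma was 0.087.

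The histogram of differences places the 6 genes among these probes.

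**Figure D5:**
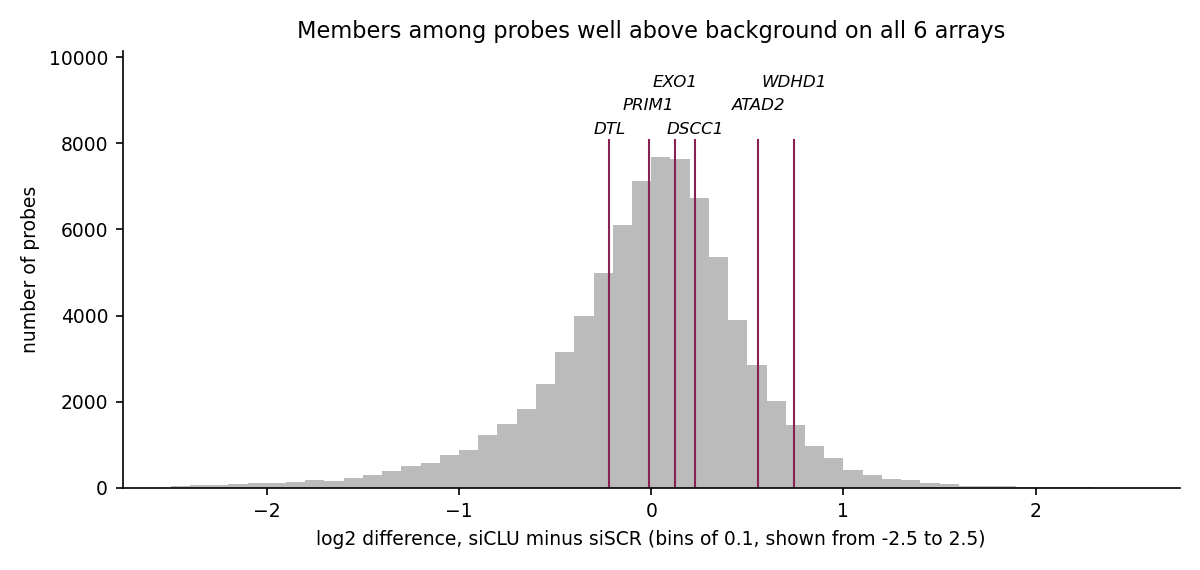
Number of probes (y axis) by log2 difference, siCLU minus siSCR (x axis), over the 77952 probes detected on every array, with a line at the value of each of the 6 genes. The lines run from DTL at -0.22 to WDHD1 at 0.75.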

How the data were processed

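RNA from 3 siCLU and 3 siSCR samples was measured on one-color Agilent arrays. For each array the authors deposited Feature Extraction 10.5.1.1 output (the submitters' processing notes list 10.10), in which each spot has an intensity on a linear scale, from which background and within-array trends were removed and which was not normalized between arrays. The authors also deposited a log2 table, quantile normalized per the methods. Here log2 of the processed signal was quantile normalized over 176032 non-control spots, outlier spots were left out, and spots of a probe were averaged. The tests used the probes that were above background (most spots, 3 arrays or more) and were made with limma 3.58.1 in R 4.3.3, except those whose spots on some array were all outliers. The threshold was an adjusted p of 0.05 (Benjamini-Hochberg) and a fold change of 1.5. Figures were drawn with matplotlib 3.10.9. The number of arrays limits the precision.

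The 6 genes were each named whatever their value, with the 2 named probes nearest to each and those of the replication list, and the members and lists were chosen with earlier results of these data known. Accessions were matched to RefSeq symbols without version numbers, 50 of 50. Every column of the table belongs to the 6 arrays. The fit was run on simulated data with independent noise, without slide effects or a poor array, so this checks the computation alone. Alternatives were a 75th percentile shift, normexp (offset 50) on the median spot signal, other filters, slide or replicate number in the fit, a trended and robust prior, array weights, other thresholds, the methods' t-test, the table as deposited, medians over spots, single spot positions, the bright area left out and each array left out. A check with only the spots named by accession was added after seeing the data.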

Additional observations from a re-analysis of the deposited data

How the results depend on the processing

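The number of the 6 genes past the threshold was 0, and it became 1, WDHD1, with array weights and at an unadjusted p of 0.05, with or without 1.5-fold. At an adjusted p of 0.05 it stayed 0 under the other alternatives, with 1 array left out in turn included. The median SD between spots was 0.061 with and 0.062 without normalization between arrays. Direction was kept for ATAD2, DSCC1, DTL, EXO1 and WDHD1 under the alternatives run on the whole comparison, but DTL was 0.11 between the arrays of slides 1 and 3. PRIM1, at -0.01, was 0.24 with array weights, 0.16 with slide blocked, 0.012 after shifting arrays to a common 75th percentile and 0.055 at its highest single spot position, and from -0.23 to 0.12 with 1 array left out, being 0.090, 0.095 and 0.12 without siSCR replicate 1, siSCR replicate 3 and siCLU replicate 1. The cause was not tested.

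The 2112 probes past the threshold over all probes became 5322 with the 75th percentile shift, 9304 with normexp, 8167 when only probes detected on every array were tested, which are fewer, 4480 with slide as a random block, 8908 with the trended prior, 13514 with array weights, 2 by the methods' t-test and 4238 without siSCR replicate 3. Limma called 0 with no filter (22733 at an unadjusted p with 1.5-fold), with slide as a block (6969), and without any other single array (16525 to 21888). Arrays of numbers 1, 2 and 3 gave correlations of -0.04, -0.24 and 0.16 between the groups' deviations from their means. Groups of 3 arrays are too few for these values to show that pairing by replicate number is absent. The arrays of number 3 also shared slide 2. With the replicate block limma called 0 of the 6 genes and 0 probes in all (20031 at an unadjusted p with 1.5-fold).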
